A study of Arabidopsis thaliana with 6 samples.

Results

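The genes described here were 10 nuclear genes of Arabidopsis thaliana that encode proteins associated with the plastid-encoded RNA polymerase (PEP). They were taken by their AGI identifiers from the 36917 genes counted, by a rule that used identifiers only, and all 10 passed the filter on low counts that 17902 genes passed. The members were PTAC3 (AT3G04260), PTAC2 (AT1G74850), PTAC10 (AT3G48500), PTAC14 (AT4G20130), PTAC12, also named HEMERA (AT2G34640), FLN1 (AT3G54090), TRX z (AT3G06730), PTAC6 (AT1G21600), PTAC7 (AT5G24314) and a gene for a MurE-like protein, written MURE here (AT1G63680). Each gene's level was compared by RNA-Seq between the wild type Col-0 (3 libraries) and amiR-mterf2 (3 libraries), a line carrying an artificial microRNA against MTERF2, which encodes an organellar protein of the mitochondrial transcription termination factor family. The labels call the mutant genotype mterf2, and the paper describes the sequenced material as the single line amiR1-3. All seedlings were 6 d old and had been grown under long days on sucrose-containing MS medium of reduced strength, so that both genotypes shared age, light and sugar supply. The libraries were described as independent biological replicates, and whole seedlings, not separated organs, were used.

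Chloroplasts transcribe their genome with a pair of polymerase types. PEP is of the bacterial type, with a core of subunits encoded in the plastid by rpoA, rpoB, rpoC1 and rpoC2, and it recognizes promoters through nucleus-encoded sigma factors. The nucleus-encoded polymerase (NEP) is a single-subunit enzyme of the phage type and transcribes, among others, the rpoB operon. In green tissue the PEP core is surrounded by the PEP-associated proteins, all of which are made in the cytosol and imported. Loss of most of them gives albino or pale seedlings, in which transcripts of photosynthesis genes read by PEP are scarce and those of NEP-dependent genes accumulate.

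Levels are given as CPM, counts scaled to a fixed library size after normalization by TMM, and a log2 fold change is that of amiR-mterf2 over Col-0 with its standard error (SE). A gene was called higher or lower when its p from the quasi-likelihood test of edgeR, adjusted by the Benjamini-Hochberg method for the 17902 genes, was under 0.05. Of the 10 members, 7 were called higher in amiR-mterf2 and 0 lower, while 18.1% of all genes tested were called higher, 18.2% lower and 36.4% in either direction. The log2 fold changes of the members had a median of 0.70, against −0.02 over all genes tested. In 8 of the 10 the mutant libraries all exceeded the wild-type ones, which was the case for 25% of all genes tested, and in 0 of the 10 they all lay below, as in 24.4% of all genes. FLN1 had the highest log2 fold change of the 10, at 1.54, and PTAC7 the lowest, at 0.23.

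The libraries held 18004935 to 21832003 counts, of which 58.7 to 62.0% were on plastid genes, and the 10 members together had 1642 to 3591 counts per library. A count of 3 corresponded to 0.140 to 0.175 CPM, well under the level of any member. Col-0 replicate 2 stood apart from the other Col-0 libraries: the mean chi-square per nuclear gene was 25.2 and 24.3 between it and Col-0 replicates 1 and 3, against 3.03 between those 2 and 3.35 to 3.58 between the amiR-mterf2 libraries. Its level of RBCS1A, a Rubisco gene, was 5857 CPM against 2030 and 2086 in Col-0 replicates 1 and 3. For plastid rbcL it was 120068 CPM against 60021 and 60337, while LHCB5, at 2527 against 2285 and 2409, differed little. Root-hair genes separated it as well, with 69 counts of EXPA7, 13 of RHD6 and 176 of COBL9 in that library and 0 to 12 in the other 5. Other root markers did not all follow: in that library CASP1 was the highest of Col-0 and MYB36 the lowest. Without that library 7 members were again called higher and 0 lower, and the median log2 fold change of the 10 was 0.63. In that fit 22.1% of all genes were called higher and 20.8% lower. MTERF2 itself had 2.26 ± 0.457 CPM in Col-0 and 1.03 ± 0.752 CPM in amiR-mterf2 (mean ± SD, n = 3). Its log2 fold change was −1.15 (adjusted p = 0.0837, edgeR) and depended on single libraries. It passed the threshold without Col-0 replicate 2 (−1.29, adjusted p = 0.0265, edgeR) or without amiR-mterf2 replicate 1 (−1.88, adjusted p = 0.0150, edgeR). With any of the other 4 left out it did not, at log2 fold changes of −0.78 to −1.15 and adjusted p of 0.148 to 0.236 by edgeR.

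The members were spread over chromosomes 1 to 5 of the TAIR10.1 assembly, and the bases before each annotated start were searched for 5 short promoter motifs on both strands, over 250 bases per gene. The G-box CACGTG, a motif bound by bZIP factors such as HY5 and by PIF factors of light signalling, stood in 2 of the 10 windows, those of PTAC3 and PTAC2. It stood in 6.49% of all 27443 windows, those before nuclear protein-coding genes among the genes counted. The telo-box AAACCCT stood in the window of TRX z alone, against 7.33% of all windows, and there it lay within the neighbouring gene. The I-box GATAAG, the GLK-type box AGATTCT and the site II element TGGGCC had 0 matches among the members, against 12.3%, 6.22% and 13.7% of all windows. Windows were searched in full, also where they ran into a neighbouring gene. Next to the start, the bases before the nearest such gene were 0 in TRX z and PTAC6 and 19 in PTAC14. They were 60 in FLN1, 65 in PTAC10 and 99 in PTAC3. None of the matches in the members overlapped that of another motif. A match describes the letters only. The upstream bases are printed for the members that hold the G-box, for PTAC12 and FLN1, which were among the members with the highest fold changes, and for PTAC7, which had the lowest; they end at the base before the annotated start and stop where a neighbouring gene begins. Capitals mark the G-box. They were read from the RefSeq TAIR10.1 genome, 5′ to 3′ on the strand of the gene, at chr3:1127582-1127680 (minus) for PTAC3, chr1:28122578-28122827 (minus) for PTAC2, chr2:14584798-14585047 (minus) for PTAC12, chr3:20027992-20028051 (plus) for FLN1 and chr5:8277450-8277699 (plus) for PTAC7.
PTAC3: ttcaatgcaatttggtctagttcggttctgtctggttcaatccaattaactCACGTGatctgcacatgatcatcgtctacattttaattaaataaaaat
PTAC2: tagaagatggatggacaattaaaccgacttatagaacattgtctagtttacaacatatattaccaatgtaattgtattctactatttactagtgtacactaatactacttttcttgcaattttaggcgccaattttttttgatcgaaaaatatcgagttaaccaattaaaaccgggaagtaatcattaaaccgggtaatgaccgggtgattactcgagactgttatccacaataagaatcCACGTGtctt
PTAC12: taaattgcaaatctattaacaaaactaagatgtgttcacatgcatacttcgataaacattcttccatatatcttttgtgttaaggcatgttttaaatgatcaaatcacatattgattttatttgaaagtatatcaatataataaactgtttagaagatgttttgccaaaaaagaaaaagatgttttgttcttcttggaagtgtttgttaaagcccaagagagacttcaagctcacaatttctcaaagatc
FLN1: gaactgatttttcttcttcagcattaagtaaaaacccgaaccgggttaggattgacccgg
PTAC7: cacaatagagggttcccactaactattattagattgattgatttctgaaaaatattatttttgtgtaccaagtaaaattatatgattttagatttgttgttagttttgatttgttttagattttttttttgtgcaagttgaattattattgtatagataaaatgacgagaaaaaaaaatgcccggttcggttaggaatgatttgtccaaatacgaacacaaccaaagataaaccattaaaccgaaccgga
The G-box of PTAC3 lay at bases −48 to −43 and that of PTAC2 at −10 to −5, counted back from the start. The GC content of the printed bases was 33.3% in PTAC3, 33.2% in PTAC2, 28.0% in PTAC12, 43.3% in FLN1 and 28.4% in PTAC7. Only 99 bases of PTAC3 and 60 of FLN1 were printed. Over 250 bases PTAC3 had 36.8% and FLN1 41.2%, and the median over the 27443 windows of that length was 31.2%.

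Of the members with nucleic acid binding domains, all 3 were called higher, PTAC10 by the most. PTAC3 carries a SAP domain of the kind found in DNA-binding proteins, and its gene occupies chr3:1122948-1127581 on the minus strand, with 13 exons. It was at 11.7, 10.8 and 10.5 CPM in Col-0 replicates 1 to 3 and at 13.3, 15.6 and 14.9 CPM in amiR-mterf2 replicates 1 to 3. The groups did not overlap, and the gap between the highest Col-0 and the lowest amiR-mterf2 library was smaller than the spread among the amiR-mterf2 libraries. The fold change was 1.32 (log2 0.40 ± 0.13 SE, adjusted p = 0.0293, edgeR). This call was lost without Col-0 replicate 3 (adjusted p = 0.0901), without amiR-mterf2 replicate 2 (0.103) or without amiR-mterf2 replicate 3 (0.0842), and with the replicate number as a block (0.0569), all by edgeR. Scaling by total counts (0.226) and the DESeq2 Wald test (0.0797) also ended it.

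PTAC2, a pentatricopeptide repeat protein, is encoded at chr1:28118664-28122577 on the minus strand, in 4 exons. It had 6.85, 5.83 and 6.41 CPM in Col-0 and 9.00, 10.2 and 8.01 CPM in amiR-mterf2. All 3 mutant libraries were higher, replicate 3 by the least. The fold change was 1.42 (log2 0.51 ± 0.16 SE, adjusted p = 0.0277, edgeR). As for PTAC3, the call depended on single libraries: the adjusted p by edgeR was 0.0665 without Col-0 replicate 3, 0.0709 without amiR-mterf2 replicate 1 and 0.121 without amiR-mterf2 replicate 2. It was 0.155 with total counts and 0.0731 with DESeq2.

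PTAC10 contains an S1 domain, an RNA-binding fold also present in ribosomal protein S1, and lies at chr3:17962080-17965723 on the plus strand, with 11 exons. Its levels were 6.81, 3.71 and 5.15 CPM in Col-0 and 10.7, 10.4 and 11.3 CPM in amiR-mterf2. The Col-0 libraries differed more among themselves than the mutant libraries did, with replicate 2 lowest, and all mutant libraries lay above them. The mean rose from 5.22 ± 1.55 to 10.8 ± 0.494 CPM (SD, n = 3), a fold change of 2.06 (log2 1.04 ± 0.20 SE, adjusted p = 0.00228, edgeR). Without Col-0 replicate 2 the log2 fold change was 0.85, and the call held.

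**Figure D1:**
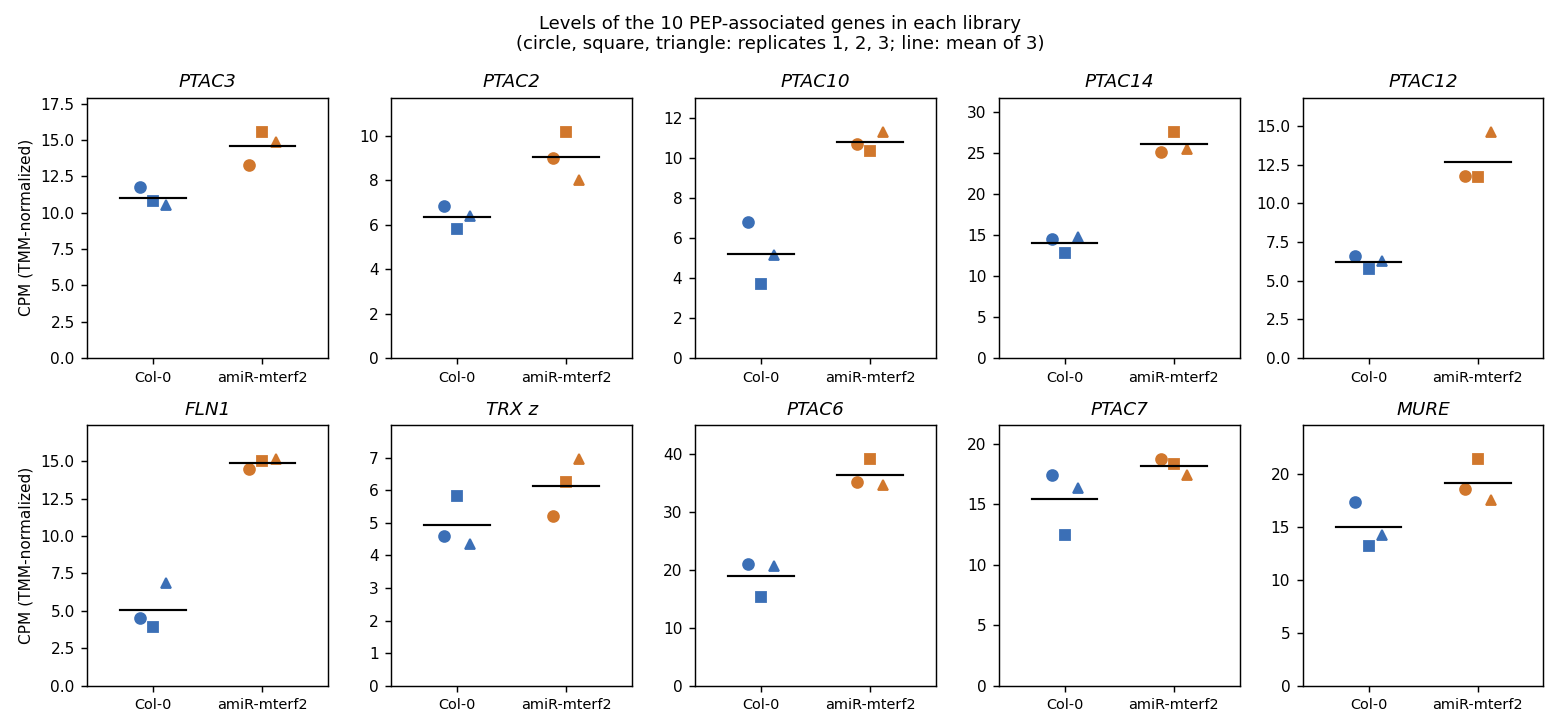
Level of each of the 10 genes in every library, in TMM-normalized CPM on a linear axis from 0 with its own range in each panel. Circles, squares and triangles are replicates 1, 2 and 3 and the line is the mean of 3. The genotypes overlap only in TRX z and PTAC7. FLN1 has the highest fitted fold change (2.91, edgeR). It runs from 3.93 to 6.83 CPM in Col-0 and from 14.5 to 15.1 CPM in amiR-mterf2.

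PTAC14, PTAC12 and PTAC6 rose by similar factors, with all mutant libraries well above all wild-type ones. PTAC14 is a SET-domain protein resembling protein lysine methyltransferases, encoded at chr4:10878817-10882052 on the plus strand in 12 exons. Its levels were 14.5, 12.8 and 14.8 CPM in Col-0 and 25.1, 27.6 and 25.5 CPM in amiR-mterf2. The spread within either genotype was small beside the gap between them, and the fold change was 1.86 (log2 0.90 ± 0.12 SE, adjusted p = 1.63e-04, edgeR).

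PTAC12 is found in plastids and in the nucleus, where it takes part in phytochrome signalling, and lies at chr2:14581835-14584797 on the minus strand, with 10 exons. It had 6.57, 5.72 and 6.27 CPM in Col-0 and 11.7, 11.7 and 14.6 CPM in amiR-mterf2. Replicate 3 was the highest of the mutant libraries, and the lowest mutant library was still far above the highest Col-0 library. The fold change was 2.05 (log2 1.03 ± 0.15 SE, adjusted p = 3.47e-04, edgeR).

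PTAC6, a protein without a known catalytic domain, was the most counted member. It is encoded at chr1:7570845-7573847 on the minus strand in 6 exons. Its levels were 20.9, 15.3 and 20.6 CPM in Col-0 and 35.2, 39.0 and 34.6 CPM in amiR-mterf2. Again Col-0 replicate 2 was the lowest library, and the genotypes were far apart with a fold change of 1.91 (log2 0.93 ± 0.14 SE, adjusted p = 3.89e-04, edgeR). Without Col-0 replicate 2 the log2 fold change was 0.81.

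PTAC7, a small plastid protein encoded at chr5:8277700-8279400 on the plus strand in 4 exons, was not called. It had 17.4, 12.5 and 16.4 CPM in Col-0 and 18.7, 18.3 and 17.4 CPM in amiR-mterf2. Col-0 replicate 1 reached the level of amiR-mterf2 replicate 3, so the groups overlapped. The log2 fold change was 0.23 with a 95% interval from −0.08 to 0.54 (adjusted p = 0.232, edgeR), and it was 0.11 without Col-0 replicate 2. A gene annotated on the opposite strand, AT5G24316, covers 225 bases or 26.1% of the PTAC7 exons. How the counting treated strand is not given in the sources used here, so reads from this overlap cannot be assigned to either gene with certainty. AT5G24316 itself had 0 counts in 5 libraries and 1 in amiR-mterf2 replicate 1. For PTAC12, TRX z and PTAC6 the overlap with a neighbouring gene was 12 to 22 bases.

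The members that resemble metabolic or redox enzymes differed among themselves: FLN1 had the highest fold change of the 10, while TRX z and MURE did not pass the threshold. FLN1 belongs to the pfkB family of sugar kinases, is named for its likeness to fructokinase, and is known to bind TRX z. Its gene lies at chr3:20028052-20030055 on the plus strand and has 2 exons. Its counts were 96, 72 and 146 in the wild type against 248, 308 and 283 in the mutant, or 4.51, 3.93 and 6.83 CPM against 14.5, 15.0 and 15.1 CPM. The mutant libraries were close to one another, and Col-0 replicate 3 was the highest of the wild-type ones. The mean rose from 5.09 ± 1.54 to 14.9 ± 0.339 CPM (SD, n = 3), a fold change of 2.91 (log2 1.54 ± 0.19 SE, 95% interval 1.12 to 1.97, adjusted p = 1.13e-04, edgeR). Without Col-0 replicate 3 the log2 fold change was 1.82, and without Col-0 replicate 2 it was 1.40.

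TRX z is a plastid thioredoxin, encoded at chr3:2124155-2126156 on the plus strand in 4 exons. Its levels were 4.60, 5.83 and 4.35 CPM in Col-0 and 5.20, 6.25 and 6.95 CPM in amiR-mterf2. Col-0 replicate 2 lay above amiR-mterf2 replicate 1, and here, unlike in the other members, replicate 2 was the highest Col-0 library. The log2 fold change was 0.32 with a 95% interval from −0.12 to 0.76 (adjusted p = 0.243, edgeR), and it was 0.46 without Col-0 replicate 2 (adjusted p = 0.0876, edgeR). FLN2, the paralogue of FLN1 and a second binding partner of TRX z, went from 5.22 ± 1.18 to 11.1 ± 1.29 CPM (SD, n = 3). It was called higher, with a log2 fold change of 1.08 (adjusted p = 0.00104, edgeR).

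MURE resembles the bacterial ligase of peptidoglycan synthesis and is encoded at chr1:23614340-23617912 on the plus strand in 5 exons. It had 17.3, 13.2 and 14.2 CPM in Col-0 and 18.5, 21.3 and 17.5 CPM in amiR-mterf2. The groups were adjacent without overlap, with Col-0 replicate 1 just below amiR-mterf2 replicate 3. The log2 fold change was 0.36 with a 95% interval from 0.05 to 0.67 (adjusted p = 0.0695, edgeR), so that the interval, which is not adjusted for the number of genes, did not include 0. It passed the threshold without Col-0 replicate 1 (adjusted p = 0.0311, log2 0.49) and with TMM over nuclear genes only (adjusted p = 0.0493), both by edgeR.

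The iron superoxide dismutases FSD2 and FSD3, which detoxify superoxide and belong to the same group of PEP-associated proteins, were counted separately from the 10. FSD2 had 2.39 ± 0.256 CPM in Col-0 and 3.47 ± 0.561 CPM in amiR-mterf2, and FSD3 had 5.49 ± 0.406 and 7.48 ± 1.67 CPM (mean ± SD, n = 3). Neither passed the threshold, at log2 fold changes of 0.54 (95% interval −0.01 to 1.08, adjusted p = 0.118, edgeR) and 0.45 (0.01 to 0.89, adjusted p = 0.101, edgeR). FSD3 passed without amiR-mterf2 replicate 1 (log2 0.63, adjusted p = 0.0329, edgeR).

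**Figure D2:**
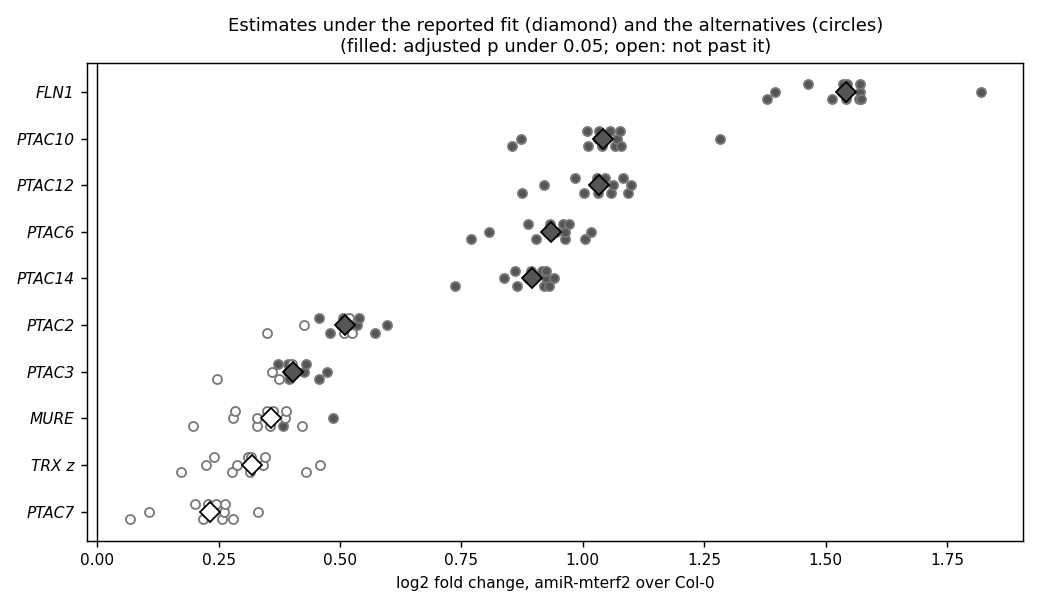
Log2 fold change of each of the 10 genes, amiR-mterf2 over Col-0, under the reported fit (diamond) and 13 alternative settings (circles), filled where the adjusted p is under 0.05. FLN1, PTAC10, PTAC12, PTAC6 and PTAC14 are filled in every setting, PTAC2 and PTAC3 in some, MURE in 2, and TRX z and PTAC7 in none of them.

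Levels of different genes were compared per kilobase of annotated exon, from the TAIR10.1 models, and as a description. In Col-0 the order ran from PTAC7, at 17.9 ± 3.02 CPM per kilobase, through PTAC6 at 11.0 ± 1.85 and PTAC14 at 7.00 ± 0.544, to TRX z at 5.01 ± 0.807 and MURE at 4.80 ± 0.693 (SD, n = 3). PTAC3 followed at 3.58 ± 0.206, PTAC12 at 2.97 ± 0.206, FLN1 at 2.94 ± 0.889, PTAC10 at 2.06 ± 0.611 and PTAC2 at 1.86 ± 0.149 CPM per kilobase. The libraries overlapped between TRX z and MURE and between each neighbouring pair from PTAC12 down to PTAC2, so those neighbours were not separated. FLN1, at 2.27 to 3.95 CPM per kilobase in the Col-0 libraries, also overlapped PTAC3, at 3.42 to 3.81. In amiR-mterf2 PTAC7 and PTAC6 overlapped, both with means of 21.1 CPM per kilobase, and PTAC14 followed at 13.0 ± 0.663. FLN1 moved from rank 8 to rank 4, at 8.61 ± 0.196 CPM per kilobase, above TRX z, MURE and PTAC12, which overlapped between neighbours at 6.23 ± 0.892, 6.16 ± 0.637 and 6.09 ± 0.812. PTAC3 and PTAC10 overlapped at 4.73 ± 0.383 and 4.25 ± 0.195, and PTAC2 remained lowest at 2.65 ± 0.320 CPM per kilobase.

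**Figure D3:**
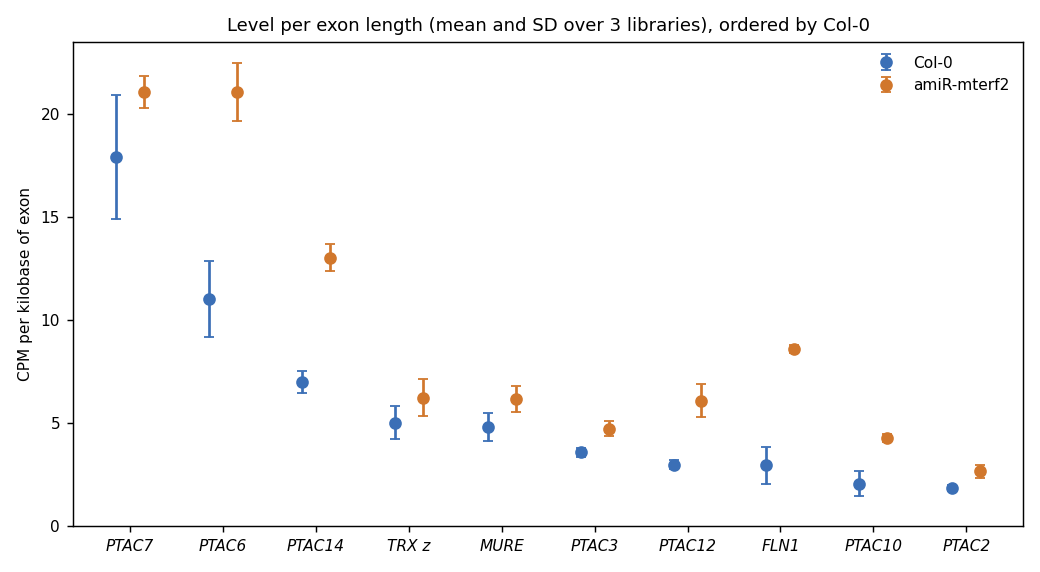
Level per exon length, in CPM per kilobase, of the 10 genes in order of their Col-0 mean; points are means and bars are SD over 3 libraries. PTAC7 leads in Col-0 at 17.9, PTAC6 reaches the same mean as PTAC7 in amiR-mterf2 at 21.1, and FLN1 rises from 2.94 to 8.61 CPM per kilobase.

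The unequal changes were also visible in each gene's share of the 10 members' summed counts, a quantity that does not depend on how libraries are scaled. The shares sum to 100% in a library, so they are not independent of one another. FLN1 made up 4.05, 4.38 and 6.47% in Col-0 against 8.95, 8.58 and 9.11% in amiR-mterf2. PTAC7 made up 15.7, 13.9 and 15.5% in Col-0 and 11.5, 10.4 and 10.5% in amiR-mterf2. The share of FLN1 was thus larger, and that of PTAC7 smaller, in every mutant library. The shares of PTAC14, PTAC12 and PTAC6 were likewise higher in all mutant libraries, those of PTAC3, PTAC2 and MURE lower, and those of PTAC10 and TRX z overlapped.

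**Figure D4:**
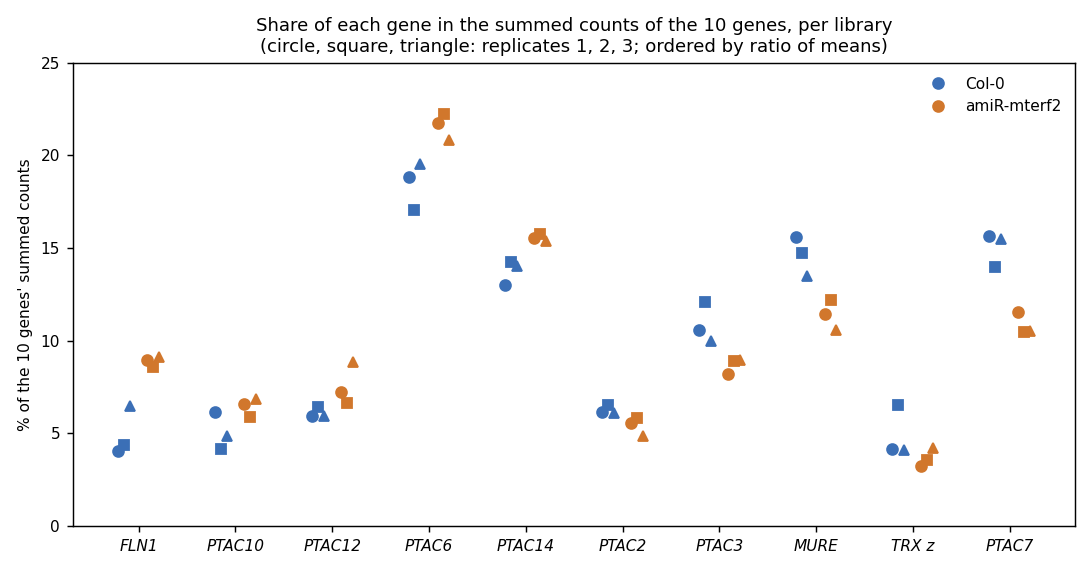
Share of each gene in the summed counts of the 10 genes, in percent, for each library (circle, square and triangle are replicates 1, 2 and 3), ordered by the ratio of the mutant to the wild-type mean. FLN1 goes from a mean of 4.97% to 8.88%, and PTAC7 at the other end from 15.0% to 10.8%.

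Counts over the exons of the genes for the core subunits, which the members surround, were also higher. All 4 core genes were called higher, with a median log2 fold change of 1.94. The rpoC2 gene rose from 218 ± 9.45 to 1423 ± 227 CPM (SD, n = 3) and rpoC1, the lowest of the 4, had a log2 fold change of 1.64 (adjusted p = 1.37e-07 and 2.71e-06, edgeR). Within a library, the log2 ratio of the summed rpo counts to the summed member counts was 3.43, 3.59 and 3.45 in Col-0 and 4.75, 4.90 and 4.72 in amiR-mterf2. It was 1.30 higher in the mutant, as a description over the chosen genes without a test, and 1.25 to 1.35 higher with any one library left out. Plastid genes as a whole had a median log2 fold change of 1.11.

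Among the 6 sigma factors, which direct PEP to promoters, 3 were called higher and 1 lower. SIG4 went from 16.5 ± 3.49 to 30.2 ± 0.973 CPM (log2 0.87, adjusted p = 0.00119, edgeR). SIG5, known for its induction by light and stress, moved the other way, from 30.9 ± 7.76 to 16.2 ± 1.24 CPM (log2 −0.93, adjusted p = 0.00195, edgeR). SIG1 was called lower as well without Col-0 replicate 2, with a log2 fold change of −0.37 (adjusted p = 0.00391, edgeR), against −0.18 in all libraries.

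Of the 3 phage-type polymerase genes, 2 were called higher. RPOTp, the plastid enzyme, rose from 9.90 ± 1.05 to 23.9 ± 2.79 CPM (log2 1.27, adjusted p = 4.30e-05, edgeR), and RPOTmp, whose product is found in mitochondria and plastids, had a log2 fold change of 0.09 (adjusted p = 0.794, edgeR). The sign of this RPOTmp value turned with total-count scaling (−0.07) and without Col-0 replicate 2 or amiR-mterf2 replicate 2 (−0.06 in each case). RPOTm was called (log2 0.59, adjusted p = 0.0142, edgeR) but not without amiR-mterf2 replicate 2 (adjusted p = 0.0776, edgeR). Of 4 PEP partners and assembly factors, FLN2 alone was called, and PRIN2, a redox-regulated plastid protein, had the lowest log2 fold change at −0.28 (adjusted p = 0.476, edgeR).

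The other proteins of the plastid transcriptionally active chromosome (pTAC), from which many members take their name, were listed as well. Of 11 listed genes 10 were tested, 3 were called higher and 0 lower, with a median log2 fold change of 0.34. PTAC9 had the highest value (log2 0.86, adjusted p = 0.00173, edgeR) and PTAC8 the lowest (log2 −0.19, adjusted p = 0.175, edgeR). PTAC18 had 0 counts in all 6 libraries. PTAC16 lost its call in 8 of 13 alternative settings.

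**Figure D5:**
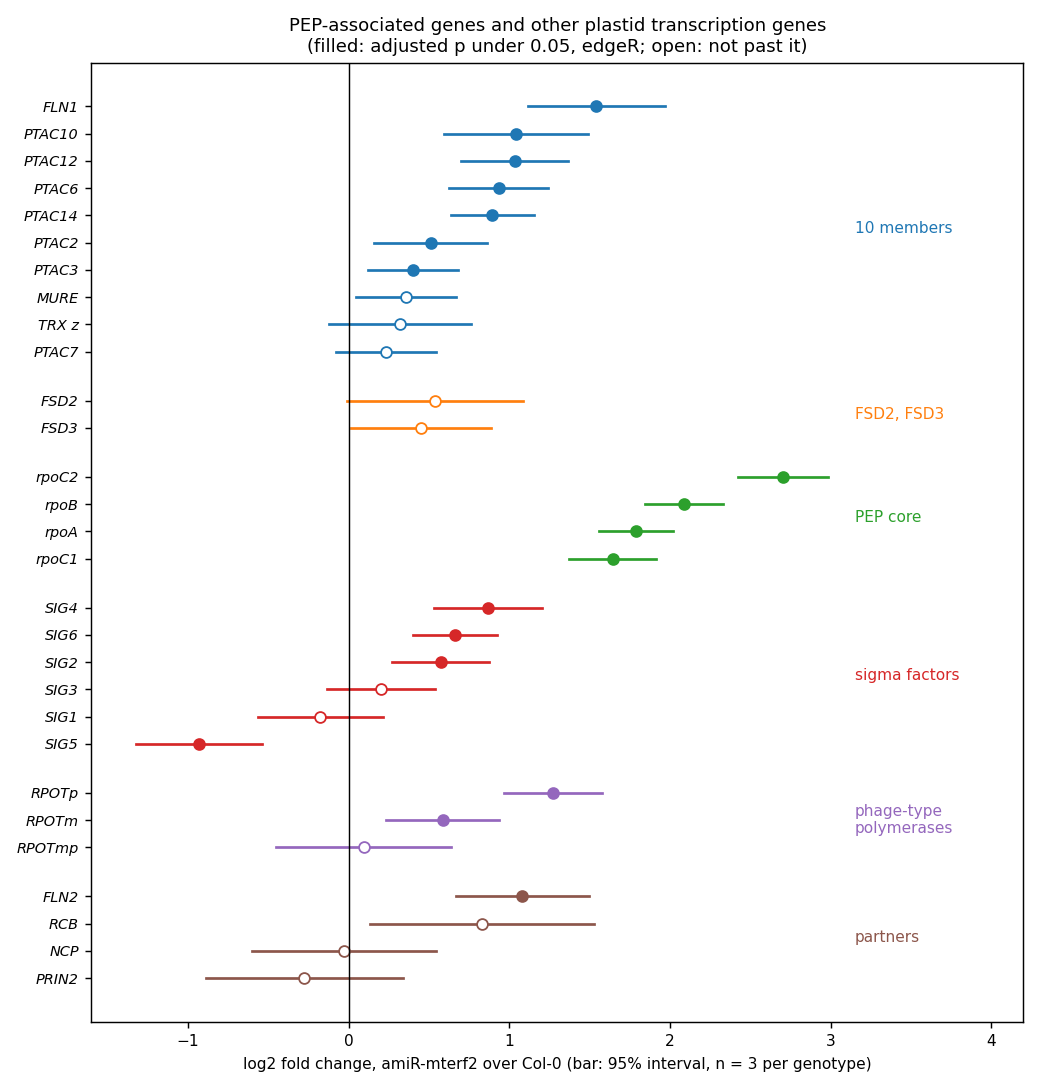
Log2 fold change of amiR-mterf2 over Col-0 with its 95% interval (n = 3 per genotype) for the 10 members, FSD2 and FSD3, the PEP core, the sigma factors, the phage-type polymerases and the partners; filled points have an adjusted p under 0.05. The core genes lie from 1.64 to 2.70, to the right of the highest member, FLN1, at 1.54, and SIG5 at −0.93 is the lowest of all genes shown.

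Of 8 plastid genes known to be read by PEP, 3 were called higher and 0 lower, with a median log2 fold change of 0.08. Without Col-0 replicate 2 the counts were 5 higher and 3 lower, with a median of 0.38. The highest was psaA, a photosystem I core gene, at 0.93 (adjusted p = 4.95e-04, edgeR), and the lowest psbC, a photosystem II antenna gene, at −0.33 (adjusted p = 0.0823, edgeR). This psbC value passed the threshold in 3 alternative settings: without Col-0 replicate 2 (−0.38, adjusted p = 8.83e-04, edgeR), with total counts (−0.49, adjusted p = 0.0209, edgeR) and with the DESeq2 Wald test (−0.34, adjusted p = 0.0487). All 5 listed genes with NEP promoters were called higher, with a median of 1.76. They include rpoB, rpoC1 and rpoC2, and the lowest of them was accD, a subunit of plastid acetyl-CoA carboxylase, at 0.47 (adjusted p = 0.00289, edgeR).

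Markers of tissues and cell states also differed between the genotypes. In whole seedlings, fewer cells of a type and less RNA per cell cannot be told apart. Of 7 root markers tested of 10 listed, 0 were called higher and 3 lower, and their summed level was 40.0 to 65.4 CPM in Col-0 and 25.3 to 26.8 CPM in amiR-mterf2. The lowest fitted log2 fold change was that of the root-hair gene COBL9, at −6.39, or −3.64 without Col-0 replicate 2. With 0, 0 and 2 counts in the mutant libraries this fitted value depends on the prior count. The highest was that of MYB36, an endodermal regulator, at 0.04, a sign that turned with total counts and without Col-0 replicate 2 or amiR-mterf2 replicate 1. The endodermal gene CASP1 had a log2 fold change of −1.55, and EXPA7 and RHD6 were at 0 counts in every mutant library and in Col-0 replicates 1 and 3. Of 5 dividing-cell markers 0 were called higher and 2 lower, with sums of 11.0 to 14.6 CPM against 4.73 to 6.88 CPM and log2 fold changes from −1.20 in KNOLLE to −0.66 in CDKB2;2. Seed storage markers were called higher in 2 of 3 tested of 4 listed and lower in 0, with sums of 6.82 to 8.28 CPM against 15.7 to 17.8 CPM, CRU3 being highest (log2 3.41) and CRA1 lowest (log2 −0.08, with the sign turned without Col-0 replicate 3 or amiR-mterf2 replicate 2). Of 6 leaf mesophyll markers 1 was called higher, GAPA1 (log2 1.08), and 1 lower, LHCB2.1 (log2 −0.94). Their sum was 9050 to 13729 CPM in Col-0, overlapping the 10906 to 10931 CPM of the mutant. Without Col-0 replicate 2, 3 leaf markers were called higher and 1 lower. The part of these markers in the values of the 10 members was not tested.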

How the data were processed

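Six-day-old seedlings had been sequenced after rRNA depletion as 150-bp read pairs. The authors deposited raw counts per gene over exons, without normalization, in 1 file per library. The file headers name HISAT2, while the submitters' processing notes name Trimmomatic, FastQC, TopHat2 2.1.1, featureCounts and TAIR10 without their roles. Strand and multiply mapped reads: not given in the sources used here.

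Genotype and replicate number came from the labels. Genes were filtered with filterByExpr (minimum count 10, minimum total 15), scaled by TMM over all genes and compared with edgeR 4.0.16's quasi-likelihood test (R 4.3.3, limma 3.58.1), Benjamini-Hochberg adjustment over 17902 genes and a threshold of 0.05. CPM were computed on TMM-normalized library sizes. Floors cover counting error only, since no molecular identifiers mark reads from 1 molecule. Gene models and upstream bases came from RefSeq TAIR10.1, in which all 10 members were found; promoter windows were limited in print to bases outside neighbouring genes. Scripts were tested on simulated counts.

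All members were described, with FSD2, FSD3, MTERF2 and, of each other list, its highest and lowest gene; other genes are named after their values were seen. Members and lists were chosen with earlier results of these data known. Alternatives were DESeq2 1.42.0 (size factors, or its Wald test), total counts, TMM over nuclear genes, each library left out in turn, a block for the replicate number, no filter, and a minimum of 10 counts per library. Figures were drawn with matplotlib 3.10.9.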

Additional observations from a re-analysis of the deposited data

How the results depend on the processing

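Over the 13 alternatives 5 to 8 members were called higher and 0 lower. The counts were 5 with total counts and with DESeq2, 8 with nuclear TMM, and 5 to 8 with 1 library left out. Over all genes, 2941 were called higher with DESeq2 and 3400 with nuclear TMM, against 3248 of 17902 in the reported fit. A left-out library or another filter changed the number tested, to 18303 without Col-0 replicate 2. The counts over settings are therefore not shares of the same total. FLN1, PTAC10, PTAC12, PTAC6 and PTAC14 were called in all 13, PTAC3 lost its call in 6 and PTAC2 in 5. With total counts 2129 genes were called higher and 4148 lower, against 3248 and 3261, and the median of all genes moved to −0.17. It was −0.12 with DESeq2, which took every gene with a count, so the set of genes differed. With edgeR and no filter it was −0.09. With total counts the calls of PTAC3, PTAC2, SIG2, RPOTm, PTAC16 and accD were lost, PTAC3 stood at 0.25, and psbC and PTAC8 were newly called lower. DESeq2 also called psbC lower. Over the transcription lists 13 genes were called higher and 1 lower; 2 were lower with total counts, and 1 to 2 with 1 library left out, the second being PTAC8 and, without Col-0 replicate 2, SIG1. Values that turned sign were RPOTmp (−0.073 with total counts, −0.065 to 0.29 with 1 library left out), the root marker MYB36 (−0.14, and −0.28 to 0.45) and the seed marker CRA1 (−0.21 to 0.11), none of them called; the cause was not tested. With the PEP-transcribed genes in place of rpo, the log2 ratio to the members differed by −0.76 between the genotypes, which is a ratio of other genes. Leaving out 1 library moved the count of all genes called higher between 2479 and 4046.

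The replicate number as a block gave 6 members called higher, with 3146 genes higher and 3126 lower in all. The labels share numbers between genotypes, but the deviations of same-numbered libraries correlated at 0.034, 0.021 and −0.012, and not every library correlated best with its own number, so the pairing was not used. With counts of 43 to 799 per library in the members and FSD genes, small changes such as that of PTAC7 were not resolved with 3 libraries per genotype.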
